A study of Mus musculus with 12 samples.

Results

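Mpo, Ctsg, Prtn3, Elane and Ms4a3, 5 genes of the azurophil granule and of the granulocyte-monocyte progenitor stage, were followed by their symbols through a count table of 31301 gene symbols. Of the 5 genes, 4 passed the filter on low counts and were tested with 10861 genes in all, and Elane, with 45 counts over the 12 libraries, did not pass. Bone marrow cells of wild-type C57BL/6J mice had been cultured for 7 days with IL-3 at 0.3 ng/mL or with TSLP at 1 µg/mL (1 label field gives mg/mL for the same culture), and the bone marrow-derived basophils were sorted by FACS. The immature population (pre-basophils) was FcεRIαhi CD49blo and the mature population was FcεRIαlo CD49bhi, so that stage and cytokine together gave 4 groups of 3 libraries, named here by cytokine and stage (such as TSLP mature). All groups shared the genotype and the culture time, and the study gated them as CD200R3+ c-Kit- before this split. The sources call the replicates separate cultures and do not say whether they came from separate animals, so p-values measure the spread between these libraries.

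Azurophil granules are the first granules laid down in a developing neutrophil, at the promyelocyte stage, and their contents are transcribed in granulocyte-monocyte progenitors and shut off as cells mature. Their known contents include a haem peroxidase, myeloperoxidase, and a set of serine proteases that cathepsin C activates. As the study recounts, earlier work placed basophils downstream of the same progenitors. Single-cell work that it cites links basophils instead to erythrocytes and megakaryocytes. Ms4a3, a membrane protein of the MS4A family, is used as a mark of descent from granulocyte-monocyte progenitors.

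Mpo, which encodes myeloperoxidase, lies at chr11:87793784-87804412 on the plus strand and has 14 exons in its longest coding transcript. The neutrophil serine proteases Prtn3 (proteinase 3, chr10:79879667-79883174) and Elane (neutrophil elastase, chr10:79886312-79888216) are adjacent on the plus strand, with 5 exons each. Ctsg (cathepsin G, chr14:56099885-56102574) and Ms4a3 (chr19:11629499-11640851) lie on the minus strand, with 5 and 7 exons. Positions are those of RefSeq on GRCm38.p6.

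The promoters of 4 of these genes are shown because 3 of them (Mpo, Ctsg and Ms4a3) had the large stage differences given below and Prtn3 did not. Each is the 250 bases before the RefSeq gene start on GRCm38.p6, read 5′ to 3′ on the gene's own strand, and capitals mark matches on either strand to 4 short motifs of factors known from myeloid progenitors: C/EBP (TTGCNNA), PU.1 (GAGGAAG), RUNX (TGNGGT) and MYB (AACNG).
Mpo: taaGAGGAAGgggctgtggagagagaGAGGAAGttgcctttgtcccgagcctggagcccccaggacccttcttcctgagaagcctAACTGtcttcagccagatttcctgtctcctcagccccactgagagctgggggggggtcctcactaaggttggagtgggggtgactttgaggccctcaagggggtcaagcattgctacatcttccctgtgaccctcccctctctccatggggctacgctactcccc
Ctsg: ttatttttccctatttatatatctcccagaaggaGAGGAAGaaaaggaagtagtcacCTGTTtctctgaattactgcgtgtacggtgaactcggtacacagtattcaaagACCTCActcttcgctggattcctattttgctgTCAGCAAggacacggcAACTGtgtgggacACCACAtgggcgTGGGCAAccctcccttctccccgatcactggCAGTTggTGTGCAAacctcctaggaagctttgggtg
Ms4a3: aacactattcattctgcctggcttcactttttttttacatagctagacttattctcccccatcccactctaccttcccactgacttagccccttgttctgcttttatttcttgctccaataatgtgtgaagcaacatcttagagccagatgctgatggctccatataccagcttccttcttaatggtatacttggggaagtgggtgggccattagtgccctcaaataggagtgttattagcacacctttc
Prtn3: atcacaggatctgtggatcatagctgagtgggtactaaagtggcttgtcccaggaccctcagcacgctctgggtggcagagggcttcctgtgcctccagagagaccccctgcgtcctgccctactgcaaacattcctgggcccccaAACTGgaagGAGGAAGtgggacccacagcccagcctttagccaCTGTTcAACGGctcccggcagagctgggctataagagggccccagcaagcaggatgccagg
Mpo (chr11:87793534-87793783, plus strand) held 2 PU.1 matches, which begin 247 and 224 bases before the start, and 1 MYB match. Ctsg (chr14:56102575-56102824, minus strand) held all 4 motifs, with 3 C/EBP, 1 PU.1, 2 RUNX and 3 MYB matches. Prtn3 (chr10:79879417-79879666, plus strand) held 1 PU.1 match and 3 MYB matches, and Elane, not printed, held 1 PU.1 and 2 MYB matches. Ms4a3 (chr19:11640852-11641101, minus strand) held none of the 4. Of 32851 RefSeq mouse promoters of the same length, 32.8% held the C/EBP letters, 10.6% the PU.1 letters, 40.1% the RUNX letters and 74.2% the MYB letters. The PU.1 letters were thus in 4 of 5 windows here, among them both genes that stayed low, and a match is a description of the letters and not a site.

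Library totals ranged from 1720065 to 3685285 counts, with 14494 to 16256 genes counted at least once. The library TSLP mature 1 stood apart from its replicates: the chi-square per degree of freedom of its counts was 46.2 against TSLP mature 2 and 58.4 against TSLP mature 3, while those libraries differed by 7.25. Ribosomal RNA rows took 17.3% of its counts and 31.5% and 34.7% of theirs. All 8 basophil markers, such as the protease gene Mcpt8 and the receptor chain gene Ms4a2, had counts in every library, and Kit was at 0 to 1.46 CPM, counts scaled by TMM to a common library size. In TSLP mature 1, the gene of CD49b lay only slightly to the mature side, and the gene of FcεRIα went against the label. Itga2, which encodes CD49b, was at 81.5 to 89.1 CPM in TSLP immature libraries and at 96.9 CPM in TSLP mature 1, against 209 and 199 CPM in TSLP mature 2 and 3. Fcer1a, which encodes FcεRIα, was at 1780 CPM in TSLP mature 1, the highest of the 12 libraries, and at 871 and 1140 CPM in the other pair. Its difference between TSLP stages did not pass the test (log2 fold change 0.08, edgeR, adjusted p = 0.835), and passed without TSLP mature 1 (0.51, adjusted p = 0.048). In the IL-3 cultures both genes differed between stages in the direction of the sort (Fcer1a 0.64, adjusted p = 0.0355, and Itga2 -3.18, adjusted p = 1.67e-07). Prss34, another basophil protease gene, was at 1500 CPM in TSLP mature 1, above the 961 and 1170 CPM of its replicates. It was at 14200 to 16500 CPM in TSLP immature libraries. Mcpt8 was at 4240 CPM in TSLP mature 1, 2170 and 2290 CPM in its replicates and 8590 to 9040 CPM in TSLP immature libraries. Of the 8 basophil markers, 3 were above both replicates and 5 below both. Of 8 progenitor-stage markers, 4 were above both and 3 below both. Of all tested genes, 41.3% were above both. For the tested genes named, stage differences with TSLP are therefore also given without the library labelled TSLP mature 1.

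Mpo was high in every immature library and close to the detection limit in most mature ones. In the IL-3 cultures it was at 730.1, 651 and 760 CPM in the immature libraries and at 2.85, 1.09 and 0.451 CPM in the mature ones, the latter from 8, 3 and 1 counts. In the TSLP cultures it was at 367, 328 and 306 CPM in the immature libraries and at 17.0, 1.14 and 1.23 CPM in the mature ones. The groups did not overlap by stage in either culture, and the mature value of 17.0 CPM came from TSLP mature 1, whose 63 counts compare with 4 and 4 in the other TSLP mature libraries. How many of all tested genes separate by stage was not counted. Overlap or its absence between stages, here and for the genes below, only describes the libraries. The immature level was 714 ± 56.4 CPM (SD, n = 3) with IL-3 and 333 ± 30.7 CPM (SD, n = 3) with TSLP. Between stages, edgeR's quasi-likelihood test gave a log2 fold change of 8.82 ± 0.749 (SE, adjusted p = 1.14e-07) with IL-3 and 5.65 ± 0.605 (adjusted p = 4.63e-06) with TSLP. Without TSLP mature 1 the TSLP value was 8.18 ± 0.351 (edgeR, adjusted p = 3.28e-10). As a ratio of summed counts with a 95% exact interval that covers counting error only, the immature cells held 459 times (262 to 888) as much Mpo as mature cells with IL-3. With TSLP the ratio was 49.5 (39.1 to 63.5), and 284 (144 to 658) without TSLP mature 1. In sorted bulk cells, fewer cells with a transcript and less transcript per cell cannot be told apart.

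**Figure D1:**
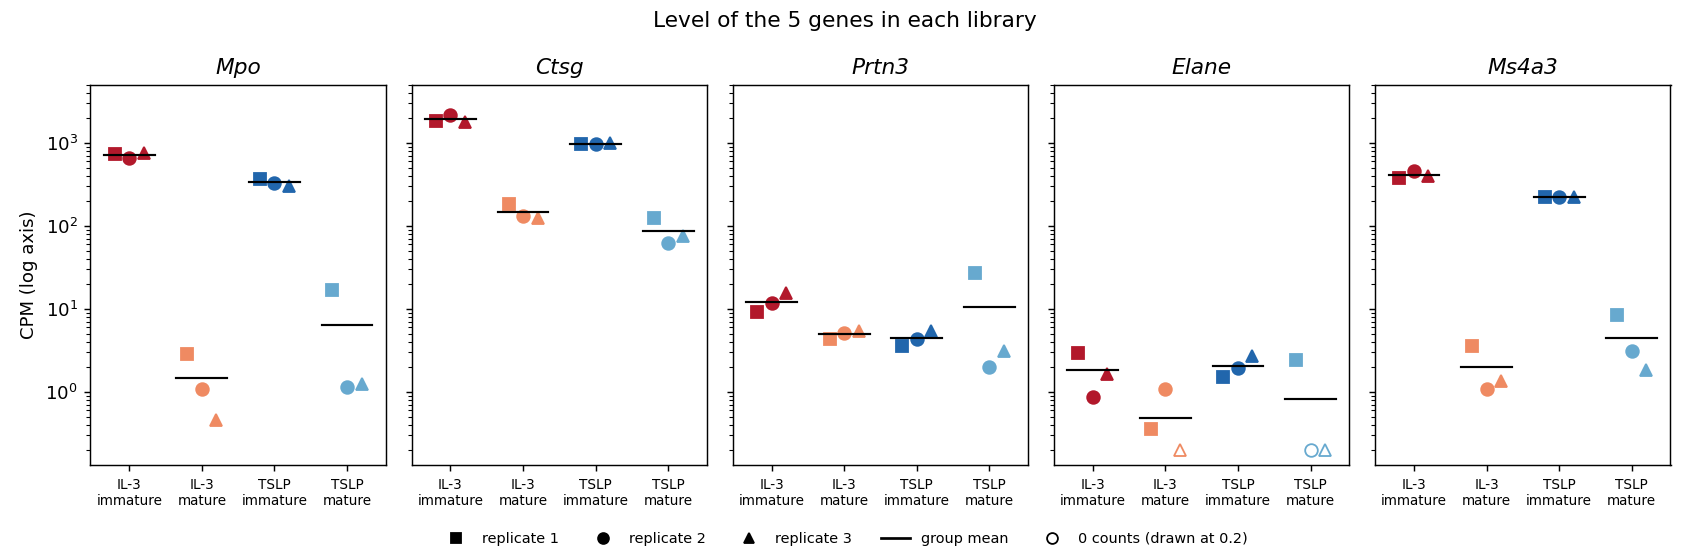
Level of each gene in CPM on a log axis in the 12 libraries, by cytokine and stage, with 1 point per library, its shape the replicate number, and a line at the group mean. Mpo, Ctsg and Ms4a3 are high in the 6 immature libraries, Prtn3 and Elane are low in most libraries, and TSLP mature 1 (square) is the highest of its group for all 5 genes.

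Ctsg, the gene of the serine protease cathepsin G, fell less steeply and remained well measured in mature cells. With IL-3 it was at 1812, 2181 and 1786 CPM in immature libraries and at 185, 133 and 125 CPM in mature ones. With TSLP it was at 958, 978 and 1003 CPM in immature libraries and at 126, 62.4 and 75.1 CPM in mature ones. No mature library reached the lowest immature one, and the lowest mature library still held 220 Ctsg counts. The log2 fold change between stages was 3.7 ± 0.26 with IL-3 (edgeR, adjusted p = 1.54e-08) and 3.48 ± 0.258 with TSLP (edgeR, adjusted p = 1.29e-07), or 3.93 ± 0.219 without TSLP mature 1. Summed counts were 13 times (12.3 to 13.9) and 11 times (10.3 to 11.8) higher in immature cells with IL-3 and with TSLP, the latter 14.3 times (13 to 15.7) without TSLP mature 1.

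Ms4a3 followed Mpo. It was at 379, 456 and 405 CPM in the IL-3 immature libraries and at 3.56, 1.09 and 1.35 CPM in the IL-3 mature ones. The TSLP immature libraries lay within a narrow range, at 223, 224 and 221 CPM, and the TSLP mature ones were at 8.36, 3.12 and 1.85 CPM. Here too the stages did not overlap, and TSLP mature 1 was the highest mature library. The log2 fold change was 7.63 ± 0.42 with IL-3 (edgeR, adjusted p = 1.47e-09) and 5.60 ± 0.364 with TSLP (edgeR, adjusted p = 4.37e-08), which became 6.54 ± 0.304 without TSLP mature 1. In summed counts the immature to mature ratio was 204 (125 to 357) with IL-3 and 48.5 (36.4 to 66) with TSLP, or 88.5 (55.2 to 152) without TSLP mature 1.

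Prtn3, the gene of the serine protease proteinase 3, did not share this pattern. With IL-3 it was at 9.22, 11.7 and 15.6 CPM in immature libraries and at 4.27, 5.10 and 5.41 CPM in mature ones. With TSLP it was at 3.61, 4.3 and 5.45 CPM in immature libraries and at 26.7, 1.99 and 3.08 CPM in mature ones. The IL-3 stages did not overlap, the TSLP stages did, and TSLP mature 1, with 99 counts, held the highest Prtn3 level of all 12 libraries. Neither stage difference passed the test (edgeR, log2 fold change 1.32 ± 0.689, adjusted p = 0.129 with IL-3, and -1.27 ± 0.68, adjusted p = 0.189 with TSLP). Without TSLP mature 1 the IL-3 difference passed, at 1.37 ± 0.303 (edgeR, adjusted p = 0.00119), and the TSLP difference changed sign without passing, at 0.90 ± 0.418 (edgeR, adjusted p = 0.113). The IL-3 difference also passed with no filter on low counts (adjusted p = 0.000653) and in a fit of the 2 IL-3 groups alone (adjusted p = 0.000935). With no filter the TSLP difference passed too, with Prtn3 lower in immature cells (-1.27, adjusted p = 0.00432).

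Elane, the gene of neutrophil elastase, was barely detected at either stage. It had 6, 3 and 5 counts in the IL-3 immature libraries, 1, 3 and 0 in the IL-3 mature ones, 5, 5 and 8 in the TSLP immature ones and 9, 0 and 0 in the TSLP mature ones. The stages overlapped in both cultures. Mean levels were 1.81 ± 1.04 CPM and 0.483 ± 0.557 CPM (SD, n = 3) in IL-3 immature and mature cells, and 2.06 ± 0.617 CPM and 0.809 ± 1.4 CPM in TSLP immature and mature cells. Two-sided exact permutation tests over the libraries gave p = 0.2 with IL-3 and p = 0.3 with TSLP, where 0.1 is the smallest p that 3 against 3 libraries allow. All 9 Elane counts of the TSLP mature group were in TSLP mature 1, and 0 counts in the other pair allow a level of up to 0.443 CPM. In summed counts the immature to mature ratio was 3.17 (0.995 to 13.2) with IL-3 and 2.38 (1.01 to 6) with TSLP. Without TSLP mature 1 the TSLP counts were 18 against 0, with a lower limit of 3.38 on the ratio. These intervals cover counting error only.

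In both cultures, then, 3 of the 4 tested genes were called higher in immature cells, at an adjusted p under 0.05. The background was 22.1% of the 10861 tested genes called higher in the immature group with IL-3 and 12.2% with TSLP. The median log2 fold change of the 4 tested genes was 5.66 with IL-3 and 4.54 with TSLP, where all tested genes had medians of -0.06 and -0.03. In the other direction, which the gene lists below need, 24.1% of tested genes were called lower in immature cells with IL-3 and 12.9% with TSLP. Without TSLP mature 1, 4 of 4 were called higher with IL-3, where the background was 25.9%, and 3 of 4 with TSLP, where it was 19% and the median of the 4 was 5.23. In that fit 25.6% and 12.4% of tested genes were called lower in immature cells with IL-3 and with TSLP. Mpo and Ms4a3 passed the filter on low counts through the immature libraries, where their counts were high. The members were also chosen with earlier results of these data known. Their calls and medians therefore describe these genes and give no independent support against the background.

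**Figure D2:**
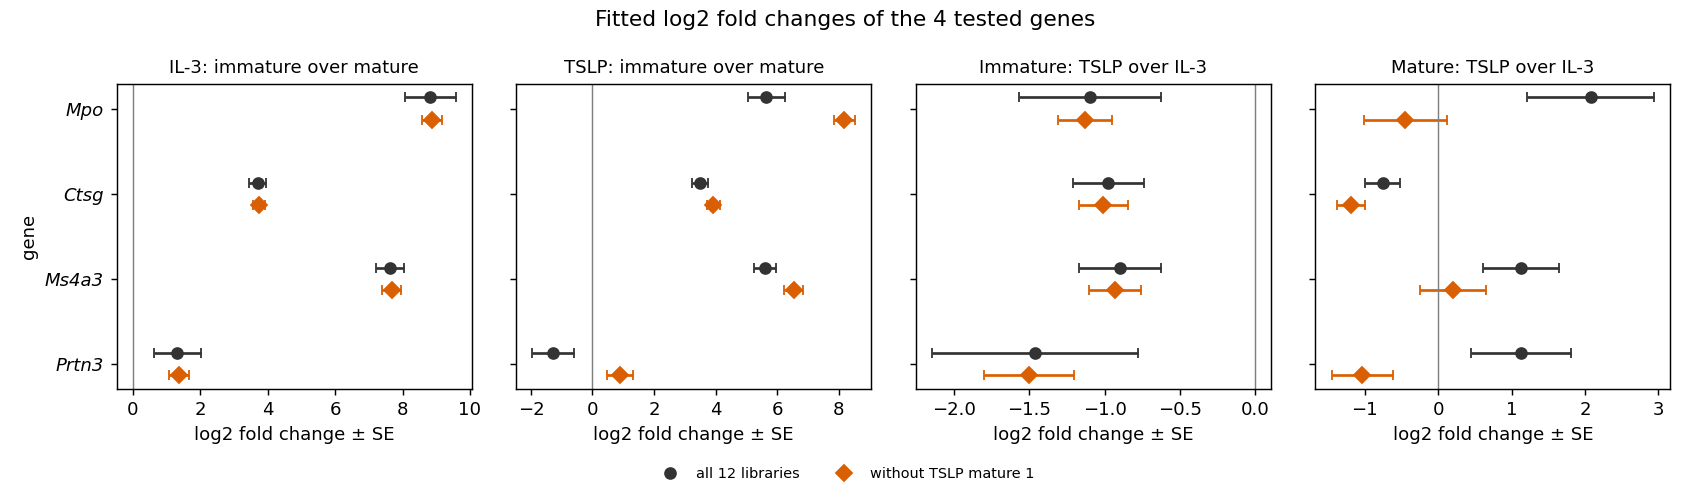
Fitted log2 fold changes with their standard errors for the 4 tested genes in 4 comparisons, from all 12 libraries (circles) and without TSLP mature 1 (diamonds); each panel has its own horizontal scale. Mpo, Ctsg and Ms4a3 lie right of 0 in both stage comparisons, all 4 genes lie left of 0 in the immature comparison, and leaving out TSLP mature 1 moves Prtn3 across 0 with TSLP.

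The size of the stage difference was compared between cultures by an interaction term, the TSLP stage difference less the IL-3 one. None of the 4 tested genes was called, where 4.19% of tested genes were (edgeR). At an unadjusted p under 0.05, 3 of the 4 were below the threshold, as were 18.5% of all tested genes. The differences were -3.18 ± 0.977 for Mpo (adjusted p = 0.0801), -2.02 ± 0.582 for Ms4a3 (adjusted p = 0.0612), -2.59 for Prtn3 (adjusted p = 0.154) and -0.22 for Ctsg (adjusted p = 0.79). Most of the Mpo value rested on TSLP mature 1, since without it the difference was -0.68 ± 0.64 (edgeR, adjusted p = 0.614), and that of Ms4a3 was -1.13 ± 0.494 (adjusted p = 0.186), with again none of the 4 called and a background of 6.56%. DESeq2's Wald test called Ms4a3 (-2.08, adjusted p = 0.00692) and no other gene of the 4, where it called 6.24% of genes. A fit with no filter on low counts called 3 of them (Mpo, Ms4a3 and Prtn3) and 2.98% of genes. A fit with the replicate number as a block called Mpo (-3.07, edgeR, adjusted p = 0.0493) and Ms4a3 (-2.02, adjusted p = 0.0488), where 5.12% of genes were called.

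Among immature cells, the TSLP libraries held less of the same genes. All 3 TSLP immature libraries lay below all 3 IL-3 immature libraries for Mpo, Ctsg, Ms4a3 and Prtn3, and overlapped them for Elane. The 4 separated genes were the 4 tested ones, and 17.8% of tested genes separated in this direction. In summed counts IL-3 immature cells held 2.11 times (2.02 to 2.21) as much Mpo, 2 times (1.94 to 2.05) as much Ctsg, 1.89 times (1.79 to 2) as much Ms4a3 and 2.82 times (1.94 to 4.18) as much Prtn3. For Elane the ratio was 0.80 (0.368 to 1.7). Other values moved with this comparison. Ribosomal RNA rows took 35 to 40.1% of counts in TSLP immature libraries and 14.7 to 25% in IL-3 immature ones. B-lineage markers summed to 34.8 to 41.9 CPM and 6.0 to 7.28 CPM in the same groups, and monocyte markers to 193 to 231 CPM and 84.1 to 107 CPM. Their part in the difference was not tested. Removing the ribosomal RNA rows changed no call of these genes, but it leaves the counts of the other genes as they were and so does not test that part.

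By edgeR, 2 of the 4 tested genes were called lower in TSLP immature cells, where 5.9% of tested genes were. These were Ctsg, at a log2 fold change of -0.98 ± 0.235 (adjusted p = 0.013), and Ms4a3, at -0.90 ± 0.275 (adjusted p = 0.0413). Mpo, at -1.10 ± 0.47 (adjusted p = 0.136), and Prtn3, at -1.46 (adjusted p = 0.171), did not pass. The estimate of spread in this fit is shared by all 4 groups, and without TSLP mature 1 the standard error of Mpo was 0.179 and its log2 fold change was -1.13 (edgeR, adjusted p = 0.000402). All 4 genes were then called lower, against a background of 10.7%, with Prtn3 at -1.50 (adjusted p = 0.00238), Ctsg at -1.01 (adjusted p = 0.00046) and Ms4a3 at -0.93 (adjusted p = 0.00129). A fit of the 2 immature groups alone, which does not use any mature library, also called all 4 (Mpo -1.13, adjusted p = 0.000949), and 18.8% of its genes. The Ms4a3 call from all groups was lost in 8 of the 12 fits that left out 1 library, those without any 1 of the 6 immature libraries, IL-3 mature 2 or IL-3 mature 3, and that of Ctsg without IL-3 immature 2 or TSLP immature 3, with log2 fold changes between -1.06 and -0.85 in all of these fits for both genes.

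Among mature cells, 1 of the 4 tested genes was called lower with TSLP, where 11.9% of tested genes were. Ctsg was at 148 ± 32.3 CPM with IL-3 and 87.6 ± 33.3 CPM with TSLP (SD, n = 3), a log2 fold change of -0.75 ± 0.24 (edgeR, adjusted p = 0.032). The highest TSLP library, TSLP mature 1 at 126 CPM, was level with the lowest IL-3 library at 125 CPM, and without TSLP mature 1 the log2 fold change was -1.19 ± 0.195 (edgeR, adjusted p = 0.000463), the only call among the 4 genes, where 16.5% of tested genes were called lower. The call was lost without IL-3 mature 1, IL-3 mature 2, TSLP mature 2 or TSLP mature 3, where the log2 fold change was as small as -0.56. It was also lost in a fit of the 2 mature groups alone (-0.77, edgeR, adjusted p = 0.0992), which called 0 of the 4 genes and 17.4% of all.

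Mpo (2.08, adjusted p = 0.0911), Ms4a3 (1.13, adjusted p = 0.123) and Prtn3 (1.13, adjusted p = 0.246) were not called between the mature groups by edgeR. All 3 values were lower without TSLP mature 1. Mpo, at -0.45 (edgeR, adjusted p = 0.625), and Prtn3, at -1.03 (adjusted p = 0.0768), then changed sign, and Ms4a3 stayed positive at 0.20 (adjusted p = 0.802). Both cytokine comparisons share libraries with the stage comparisons above.

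Set against each other within a library, which no scaling between libraries can alter, Ms4a3 kept a nearly fixed proportion to Ctsg in immature cells. The 6 immature libraries held 20.9 to 23.2 Ms4a3 counts and 29.8 to 42.5 Mpo counts per 100 Ctsg counts. Prtn3 varied more, at 0.509 to 0.871 counts per 100 Ctsg counts in IL-3 immature libraries and 0.377 to 0.543 in TSLP immature ones, ranges that overlap. In mature libraries other than TSLP mature 1 the same ratios were 0.36 to 1.82 for Mpo, 0.82 to 5 for Ms4a3 and 2.31 to 4.32 for Prtn3. Relative to Ctsg, Mpo and Ms4a3 were thus lower in mature than in immature libraries, and Prtn3 was higher. TSLP mature 1 had 13.5 Mpo counts, 6.67 Ms4a3 counts and 21.3 Prtn3 counts per 100 Ctsg counts. For Mpo and Ms4a3 these ratios lay between those of the other mature libraries and those of the immature ones. Its Prtn3 to Mpo ratio, 157 counts per 100, was within the range of the other mature libraries (150 to 1200) and outside that of the immature ones (0.984 to 2.05). The mature range is imprecise, as it rests on Mpo counts of 8, 3 and 1 with IL-3 and 4 and 4 with TSLP.

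The excess in TSLP mature 1 was uneven across the genes. Against TSLP mature 2 and 3 together, its level was 14.4 times higher for Mpo (6.88 to 34.8), 10.6 times for Prtn3 (6.32 to 19.0), 3.33 times for Ms4a3 (1.79 to 6.42) and 1.83 times for Ctsg (1.61 to 2.09). Some markers of other cells were also raised in this library. Of 12 neutrophil granule markers, 10 were above both other TSLP mature libraries, where 41.3% of tested genes were. Among them were Ngp, a secondary granule protein gene, at 154 CPM against 5.11 and 5.23 CPM, and the alarmin gene S100a9 at 283 CPM against 9.36 and 4.62 CPM. Ly6g, at 2.7 CPM against 1.13 and 2.77 CPM, and Fcnb, at 0 CPM against 0.284 and 1.54 CPM, were not above both. The list summed to 850 CPM in TSLP mature 1 and to 63.3 and 57.2 CPM in the other pair.

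Of 8 B-lineage markers, 8 were also above both, with a sum of 175 CPM against 20.1 and 21.9 CPM, as were 5 of 6 eosinophil markers (74.7 against 30.1 and 41.9 CPM). Of 6 monocyte markers, 3 were above both and 2 below both (sum 665 against 523 and 462 CPM). That is near the 41.3% of tested genes above both. Mast cell markers summed to 0 CPM in TSLP mature 1, and Tpsab1 and Mrgprb2 were at 0 in all 12 libraries. Whether such cells were present, and their part in the levels of the 5 genes, was not tested.

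**Figure D3:**
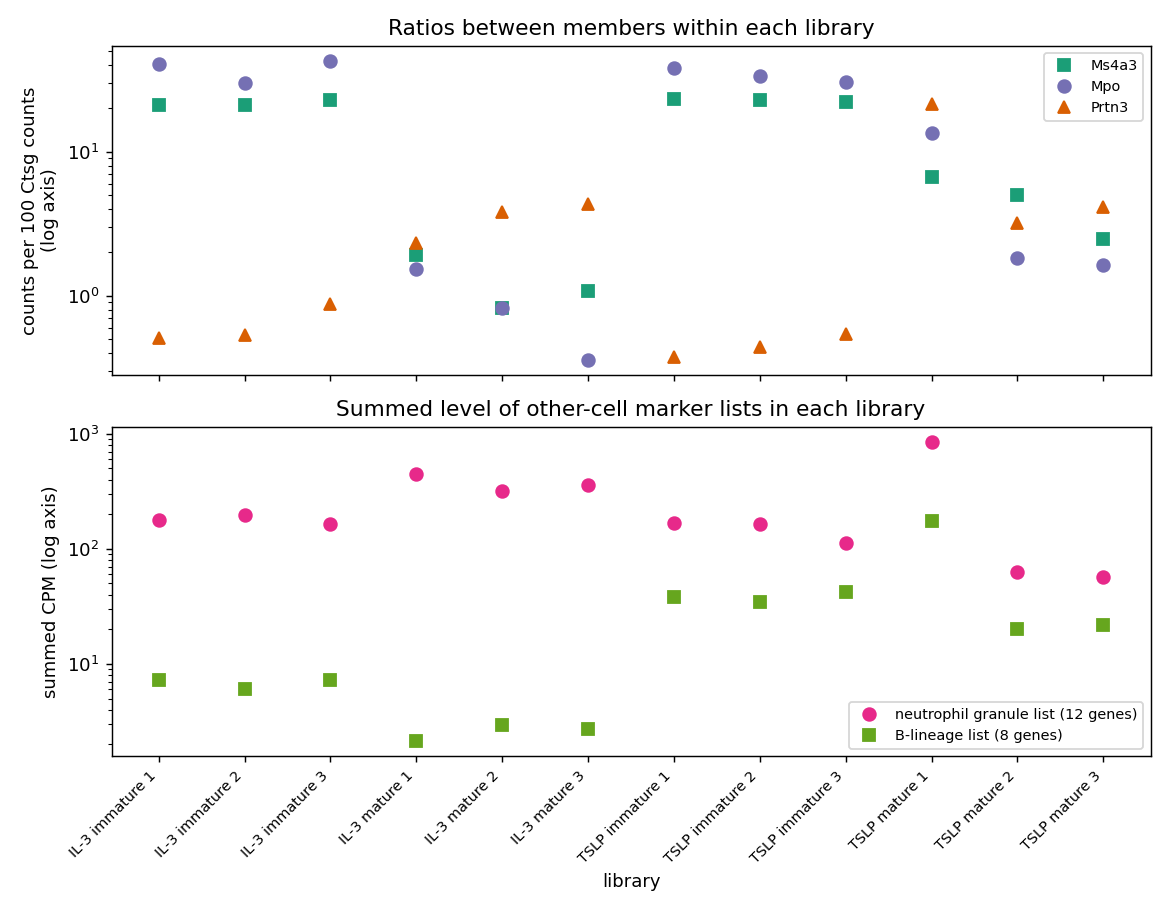
Upper panel, counts of Mpo, Ms4a3 and Prtn3 per 100 Ctsg counts in each library on a log axis; lower panel, summed CPM of the neutrophil granule and B-lineage marker lists in the same libraries on a log axis. The immature libraries share 1 order (Mpo, Ms4a3, Prtn3), Prtn3 is the highest ratio in 5 of 6 mature libraries, and both marker sums peak in TSLP mature 1, at 850 and 175 CPM.

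Between IL-3 stages, the summed neutrophil granule list went the other way from Mpo, Ctsg and Ms4a3, at 166 to 197 CPM in immature libraries and 317 to 446 CPM in mature ones. With TSLP it was at 112 to 168 CPM in immature libraries, below the 850 CPM of TSLP mature 1 and above the 63.3 and 57.2 CPM of TSLP mature 2 and 3. Apart from TSLP mature 1, the sum was thus higher in TSLP immature than in TSLP mature libraries, and much of it was 1 gene. Lcn2 was at 99.8 to 118 CPM in TSLP immature libraries and at 11.1 and 14.8 CPM in TSLP mature 2 and 3. Without TSLP mature 1 the median log2 fold change of the list's 10 tested genes between TSLP stages was -0.08. By edgeR 1 of its 10 tested genes was higher and 4 were lower in IL-3 immature cells, and 1 was higher and 8 were lower in TSLP immature cells. Without TSLP mature 1 the counts were 1 higher and 9 lower with IL-3, and 1 higher (Lcn2, 3.19, adjusted p = 1.5e-08) and 1 lower (Mmp8, -1.38, adjusted p = 0.00226) with TSLP, both named after their values were seen. Retnlg, a neutrophil resistin-like gene, had 4.44 CPM in immature and 106 CPM in mature cells of the IL-3 cultures (log2 fold change -4.53, adjusted p = 5.84e-06). Monocyte markers were also lower in immature cells, 6 of 6 with IL-3 and 4 of 6 with TSLP, and 4 of 6 without TSLP mature 1.

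As a level per kilobase of the longest coding transcript in GENCODE M21, Ctsg led in IL-3 immature cells with 1920 ± 220 CPM per kb (SD, n = 3). Ms4a3 followed at 409 ± 38.8, then Mpo at 259 ± 20.5, Prtn3 at 11.9 ± 3.12 and Elane at 1.84 ± 1.05 CPM per kb, and neighbours in this order were separated by more than their SDs. TSLP immature cells had the same order, at 978, 220, 121, 4.34 and 2.09 CPM per kb. In mature cells Ctsg was again first, at 148 CPM per kb with IL-3 and 87.5 CPM per kb with TSLP, and Prtn3 was second with IL-3, at 4.81 ± 0.574 CPM per kb. Ms4a3 (1.98 ± 1.34), Mpo (0.532 ± 0.451) and Elane (0.491 ± 0.566 CPM per kb) followed in IL-3 mature cells, of which the last pair did not differ beyond the spread. In TSLP mature cells Prtn3 (10.3 ± 13.6) and Ms4a3 (4.40 ± 3.42 CPM per kb) did not differ beyond their SDs. Prtn3 led Ms4a3 there through TSLP mature 1, at 26.1 CPM per kb, and without that library they were level, at 2.47 and 2.46 CPM per kb, with Ms4a3 above Prtn3 in TSLP mature 2. Mpo, whose transcript of 2750 bases is the longest of the 5, stood above Ms4a3 in CPM and below it per kb in immature cells. That reversal comes from the division by length. A level per kb assumes reads spread evenly along each transcript, which was not checked. The study isolated the mRNA on oligo-dT beads, so the order per kb is a description only.

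Some reads could have been shared with other genes. Of the 50-base stretches in coding transcripts of Mpo, 10.6% also occur in transcripts of other genes, and none do for Ctsg, Elane, Prtn3 and Ms4a3. Exons of Gm11505 overlap those of Mpo by 512 bases on the opposite strand, and exons of Plppr3 overlap those of Prtn3 by 159 bases on the opposite strand. The strand setting of the counting is not given in the sources used here, so these genes cannot be told apart in the overlaps. Plppr3 itself had 30 counts over the 12 libraries.

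Of 10 other genes of azurophil granule contents, 9 were tested. With IL-3, 2 were higher and 2 lower in immature cells, and with TSLP 1 was higher and 4 lower, with median log2 fold changes of -0.10 and -0.81. Prss57, a further neutrophil serine protease (NSP4), moved as Mpo did, with 32.0 CPM in immature and 0.662 CPM in mature cells of the IL-3 cultures (log2 fold change 5.56 ± 0.481, edgeR, adjusted p = 1.37e-07). With TSLP it was at 16.9 and 1.01 CPM (3.97 ± 0.436, edgeR, adjusted p = 5.87e-06).

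Ctsd, the gene of the lysosomal protease cathepsin D, went the other way, with 457 CPM in immature and 2400 CPM in mature cells of the IL-3 cultures (log2 fold change -2.39, adjusted p = 1.27e-07). So did the lysozyme gene Lyz2 with TSLP (-1.67, adjusted p = 0.00787), and did not pass once TSLP mature 1 was left out (-0.67, adjusted p = 0.0559). Without that library 2 of the 9 genes were higher and 3 lower with TSLP, and Prss57 was at 4.54 (edgeR, adjusted p = 4.81e-06). Bpi, the gene of a bactericidal granule protein, was at 0 in all libraries.

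Genes that process or sort the granule proteases were lower in immature cells where they differed, 4 of 9 with IL-3 and 2 of 9 with TSLP. Ctsc, the gene of cathepsin C, which activates these proteases, had 147 CPM in immature and 266 CPM in mature cells of the IL-3 cultures (log2 fold change -0.86, edgeR, adjusted p = 0.00633). It was at 160 and 263 CPM with TSLP (-0.71, adjusted p = 0.0327), and did not pass once TSLP mature 1 was left out (-0.52, adjusted p = 0.1), which left 1 of 9 genes lower with TSLP. Lyst, which regulates the size of lysosome-related granules, had a log2 fold change of -1.92 (adjusted p = 0.000149) with IL-3. Rab27a, a GTPase gene of granule docking, had one of -0.73 (adjusted p = 0.00147) with IL-3.

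The next list held genes of haem synthesis and the endoplasmic reticulum chaperones of Mpo. With IL-3, 4 of 10 genes were higher in immature cells and 0 lower, and with TSLP 2 were higher and 1 lower, with medians of 0.53 and 0.39. The 2 chaperone genes were both called in both cultures: Calr, the gene of calreticulin, had 1260 CPM in immature and 190 CPM in mature IL-3 cells (log2 fold change 2.73 ± 0.189, edgeR, adjusted p = 1.24e-08) and at 729 and 267 CPM with TSLP (1.45 ± 0.18, adjusted p = 2.17e-05, and 1.73 without TSLP mature 1). Canx, the gene of calnexin, had log2 fold changes of 1.63 and 0.96 (adjusted p = 1.47e-06 and 0.000693), the second of which was 0.99 without TSLP mature 1. Without TSLP mature 1, 4 genes of the list were higher and 1 lower with TSLP. Both chaperones serve many secreted proteins. Calr had an interaction of -1.28 (edgeR, adjusted p = 0.00859), and of -1.05 (adjusted p = 0.00502) without TSLP mature 1.

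**Figure D4:**
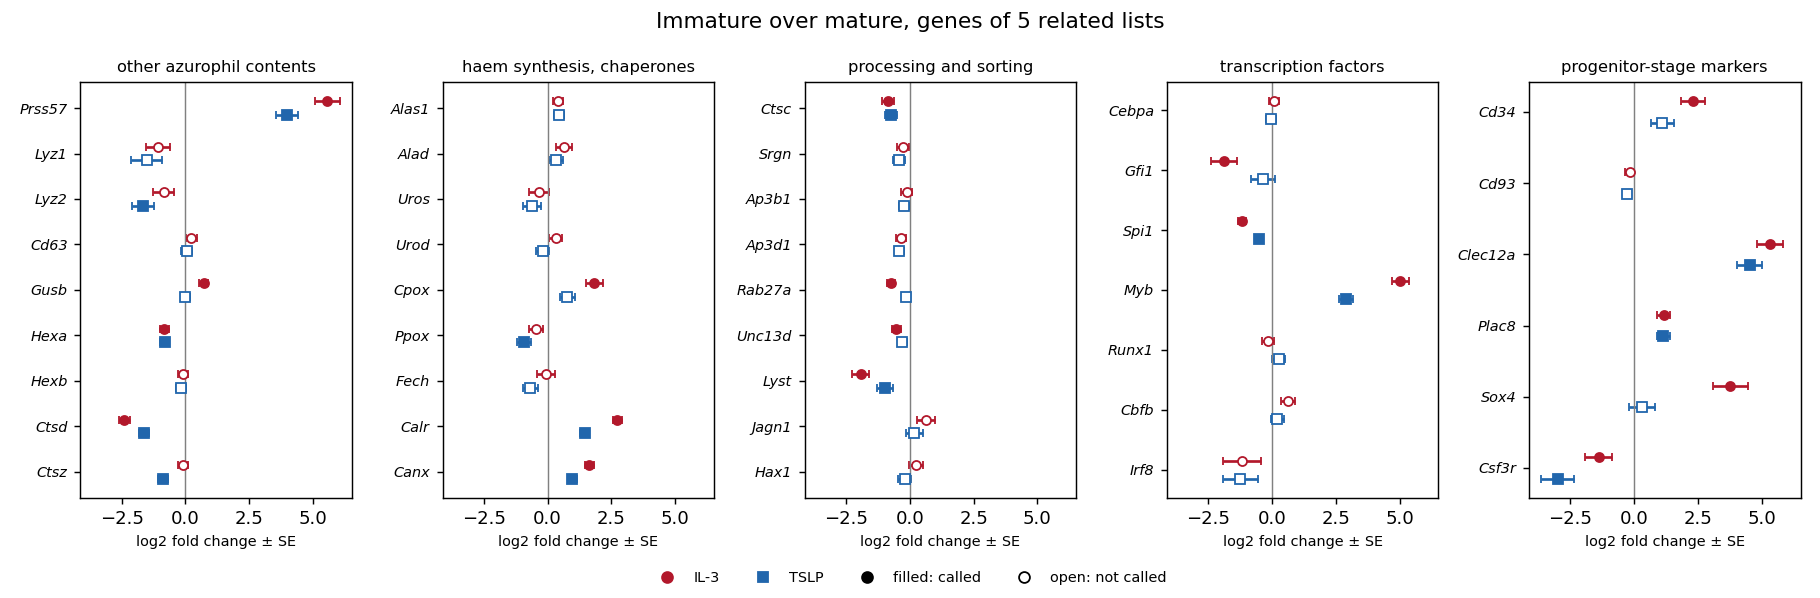
Log2 fold change of immature over mature cells with its standard error for tested genes of 5 lists related to the granule genes, from all 12 libraries, with IL-3 (circles) and TSLP (squares), filled where the adjusted p was under 0.05. Prss57, Myb, Clec12a and Calr lie far to the right in both cultures, and Ctsd lies to the left.

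Among inhibitors of these proteases, Slpi, a secreted inhibitor of elastase and cathepsin G, had 409 CPM in immature and 2810 CPM in mature cells of the IL-3 cultures (log2 fold change -2.78, adjusted p = 8.08e-07), and at 864 and 1810 CPM with TSLP (-1.07, adjusted p = 0.0077, and -0.59, adjusted p = 0.0455, without TSLP mature 1). Serpinb1a, an intracellular inhibitor of the same proteases, was higher in immature cells in both cultures (0.64 and 0.59 on the log2 scale, adjusted p = 0.00756 and 0.0213), and the TSLP value was 0.86 (adjusted p = 0.000581) without TSLP mature 1. Of the list's 7 genes 4 were tested, and 2 were called higher and 1 lower with IL-3, and 1 and 1 with TSLP, with or without TSLP mature 1.

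Of 8 transcription factor genes of myeloid progenitors 7 were tested, with 1 higher and 2 lower in IL-3 immature cells and 1 higher and 1 lower in TSLP immature cells. Myb, a factor of proliferating progenitors, had 68.9 CPM in immature and 2.09 CPM in mature cells of the IL-3 cultures (log2 fold change 5.04 ± 0.34, edgeR, adjusted p = 9.46e-09). With TSLP it was at 41.9 and 5.55 CPM (2.90 ± 0.282, adjusted p = 1.76e-06), and its interaction was called at -2.14 (adjusted p = 0.0181). These were 3.07 (adjusted p = 1.22e-06) and -2.02 (adjusted p = 0.0274) without TSLP mature 1. Spi1, the gene of PU.1, was lower in immature cells (-1.17 with IL-3, adjusted p = 2.42e-05, and -0.51 with TSLP, adjusted p = 0.0276), and its TSLP call was lost without TSLP mature 1 (-0.29, adjusted p = 0.154). Cebpa, chosen after its values were seen, was at 332 and 317 CPM with IL-3 (adjusted p = 0.802) and at 400.0 and 404 CPM with TSLP (adjusted p = 0.967, and 0.619 without TSLP mature 1), and Cebpe had 7 counts in all.

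Of 8 progenitor-stage markers 6 were tested, with 4 higher and 1 lower in IL-3 immature cells and 2 higher and 1 lower in TSLP immature cells. Clec12a, a myeloid lectin receptor gene, was at 261 and 6.26 CPM with IL-3 (log2 fold change 5.33 ± 0.498, edgeR, adjusted p = 3.23e-07). With TSLP it was at 127 and 5.32 CPM (4.54 ± 0.485, edgeR, adjusted p = 4.6e-06). Its level was 12.1 CPM in TSLP mature 1 and 2.27 and 1.54 CPM in the replicates, which alone gave a TSLP value of 6.11 ± 0.381 (edgeR, adjusted p = 7.78e-09). Plac8 had log2 fold changes of 1.17 and 1.14 (adjusted p = 0.00157 and 0.00411), the second of which was 1.71 without TSLP mature 1.

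In the serine protease cluster of chromosome 14, Ctsg and its neighbour Mcpt8, a basophil protease gene, were called higher in immature cells in both cultures (Mcpt8 1.69 and 1.60, adjusted p = 3.2e-05 and 0.00015, the second 2.07 without TSLP mature 1). Of 15 listed members of this cluster 14 were in the table, 8 had counts and 3 were tested. The nearest measured genes on the other side of Ctsg, Gzmd, Gzmg and Gzmn, had 0 counts. Of the same list, Gzmc had 15 counts and Gzmb had 172. Gzmb was at 4.92 and 4.09 CPM in immature and mature cells with IL-3 and at 5.45 and 5.03 CPM with TSLP. It was tested and not called between stages. On chromosome 10, Prss57 at 79781474-79794684 lies 84983 bases before Prtn3, with 6 annotated genes between them. Ptbp1, an RNA-binding protein gene near Prtn3, was at 209 and 66.2 CPM with IL-3, while Cfd, next to Elane, was at 0.

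Mpo's neighbours Lpo and Epx, which encode the lactoperoxidase and eosinophil peroxidase of the same family, had 0 and 4 counts. Gm34064, which overlaps the start of Mpo, had 1.64 CPM in immature and 0 CPM in mature cells with IL-3, and 1.10 and 0.0899 CPM in the same stages with TSLP. In the MS4A family, 9 of 15 genes were tested, and 2 were higher and 5 lower in IL-3 immature cells and 2 higher and 6 lower in TSLP immature cells. The TSLP counts were 3 higher and 5 lower without TSLP mature 1. The 2 genes higher from all libraries were Ms4a3 and its neighbour Ms4a2, the β chain of the IgE receptor, at 1180 and 735 CPM with IL-3 (log2 fold change 0.68, adjusted p = 0.00365). Ms4a4b, at 5.45 and 74.4 CPM, had a log2 fold change of -3.78 (adjusted p = 1.26e-07).

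Across the 12 libraries the log2 CPM of Mpo and Ms4a3 had a Pearson r of 0.994, those of Mpo and Ctsg 0.961 and those of Ctsg and Ms4a3 0.965, and 0.997, 0.977 and 0.968 without TSLP mature 1. Prtn3 had an r of 0.351 to 0.424 with these genes, and of 0.61 to 0.745 without TSLP mature 1. The libraries fall into stages, so these are descriptions of that split. Of 7547 genes at a mean of at least 10 CPM, those most like Mpo were Cks1b (r = 0.994), Cdca8 (0.993) and Gm8203 (0.988), and those most like Ms4a3 were Cdca8 (0.995), Prss34 (0.994) and Nusap1 (0.994). Cks1b, Cdca8 and Nusap1 act in cell division, and Prss34 is a basophil protease gene. For Ctsg they were D17H6S56E-5 (0.991), Spc24 (0.987) and Papss2 (0.987), and for Prtn3 Erp29 (0.883), Cuta (0.867) and Tmem60 (0.866). The mean of the 4 tested genes was most like Psmd7 (0.988), Pbdc1 (0.98) and Rnaseh2b (0.973). Over the 11 libraries other than TSLP mature 1, the genes most like Mpo were Cyp51 (0.997), Ttk (0.997) and Cdca8 (0.994), and those most like Prtn3 were Scin (0.959), Mettl6 (0.956) and Cuta (0.932). Those most like Ctsg were then Pbdc1 (0.995), Clec12a (0.991) and D17H6S56E-5 (0.99), and those most like Ms4a3 were Cks1b (0.997), Cdca8 (0.995) and Ncaph (0.995). The mean of the 4 was then most like Hsd17b12 (0.988), Papss2 (0.988) and Psmd7 (0.987).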

How the data were processed

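RNA was extracted from sorted basophils with a Nucleospin kit, amplified, and read on the Ion Proton platform. As the study's methods state, the authors trimmed adapters with Cutadapt, mapped reads to reference RNA with Bowtie2 and counted reads per gene, and they deposited raw counts for 12 libraries. The methods name GRCm38 and the submitters' processing notes list GRCm39 and mm10. The treatment of reads that match several genes is not given in the sources used here.

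An unnamed row equal to each column's total (50% of the column) was removed. Libraries were grouped by the labels into 4 groups of 3. The counts were fitted with edgeR 4.0.16 in R 4.3.3: genes were filtered (filterByExpr, minimum count 10, minimum total 15), scaled by TMM, and tested by the quasi-likelihood F test on 4 group means without a block, with Benjamini-Hochberg adjustment over 10861 genes and a threshold of 0.05. CPM is the count divided by the TMM-scaled library size, times 1e+06, and all symbols have it. Count ratios have exact binomial 95% intervals, and floors are 3 counts over a group. Intervals and floors cover counting error only, as amplified reads are not independent molecules. Correlations used log2 CPM with a prior count of 2. Elane was compared with scipy 1.17.1. The fit was tested on simulated data.

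The members and lists were chosen with earlier results of these data known. The text names the 5 members, up to 3 genes per list with the largest called stage difference and a mean of at least 10 CPM, the 3 genes most like each member, near neighbours in the table, and markers at 0, and 2 listed genes are not reported here. Alternatives were another scaling, TMM on uncalled genes, DESeq2 1.42.0, 2 other filters, removal of ribosomal RNA rows, fits of 2 groups, a replicate block and leaving out each library. Removal of all 3 ribosomal rows (Rn45s, Rn18s and Rn28s1) was added after seeing the data.

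Promoter sequences and positions are from RefSeq (GRCm38.p6), where all 5 members matched, and transcript lengths and exon overlaps are from GENCODE M21.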

Additional observations from a re-analysis of the deposited data

How the results depend on the processing

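Of 418 recomputed log2 fold changes of the genes, 372 kept their direction and their side of the threshold, 16 were no longer called, 26 became called and 4 changed sign, all without TSLP mature 1: Prtn3 between TSLP stages (0.90), Mpo (-0.45) and Prtn3 (-1.03) between mature groups, and the Ctsg interaction (0.18). Leaving out a library, these 4 values ranged from -1.72 to 0.90, -0.45 to 2.98, -1.03 to 1.59 and -0.41 to 0.18. In both stage comparisons, Mpo, Ctsg and Ms4a3 were called in every fit. Of the 4 tested genes, those called between immature groups numbered 1 with TMM on uncalled genes (where 12.5% of genes tested in that fit were called), 4 with no filter on low counts (7.59%), 4 in a fit of the 2 groups (18.8%) and 0 to 4 leaving out a library (5.32 to 20.4%). Between mature groups they numbered 4 with no filter (12.3%), 0 in a fit of the 2 groups (17.4%, which called 1714 genes, against 2634) and 0 to 2 leaving out a library (14.8 to 26.9%). In the interaction they numbered 1 with DESeq2 (6.24%), 3 with no filter (2.98%) and 0 to 2 leaving out a library (2.15 to 6.56%). Genes called ranged, leaving out a library, from 1774 to 3456 between TSLP stages, 1658 to 2968 between mature groups, 588 to 2243 between immature groups and 240 to 723 in the interaction. For these the cause was not tested. The added removal of 3 ribosomal RNA rows changed no call of these genes, and scaling moved the median of all genes by under 0.1.

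With a replicate block, 2 genes were called in the interaction (5.12% of all, Mpo -3.07, adjusted p = 0.0493, and Ms4a3 -2.02, adjusted p = 0.0488, edgeR), and no other call of these genes changed. The main fit used no block, and whether the replicate numbers mark a pairing was not settled. Of 12 libraries 8 were most like their own number, and 7 of 18 same-numbered pairs had a correlation of deviations over 0.1. Those correlations ran from -0.077 to 0.388 in same-numbered pairs and from -0.305 to 0.272 in other pairs. Depth limits Elane and mature Mpo, where single libraries held 0 to 9 Elane counts and as few as 1 Mpo count.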
